A study of Canis lupus familiaris with 22 samples.

Results

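Introns are cut out of pre-mRNA by the spliceosome, which is built from small nuclear ribonucleoprotein particles (snRNPs) and many further proteins. In brief, U1 pairs with the start of an intron, the U2AF heterodimer marks its end, U2 settles on the branch point, and the U4/U6.U5 tri-snRNP then joins before the complex is activated. SR proteins bind exons and help choose which sites are used. The genes described here are those whose symbol on the platform starts with SNRP, SF3A or SF3B and a number, SRSF and a number, PRPF and a number, U2AF and a number, or LSM and a number, counted where that symbol was the only one of a probe set. There were 56 such genes among 15115, read by 136 probe sets. By family these were 13 LSM, 12 PRPF, 11 SRSF, 9 SF3, 9 SNRP and 2 U2AF genes. Not all of them are core spliceosome genes. LSM1 belongs to a cytoplasmic ring that acts in mRNA decay, LSM10 and LSM11 belong to the U7 particle of histone mRNA processing, and LSM14A and LSM14B act in translational repression.

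RNA was measured in 22 dog bladder tissues on Affymetrix Canine 2.0 chips, which read a transcript with several short oligonucleotides, together called a probe set. The invasive urothelial carcinoma (iUC) group held 18 naturally occurring, high grade tumors of pet dogs, sampled at cystoscopy before therapy. The normal bladder group held 4 bladders of healthy dogs matched for age and free of tumor. Every tissue had an array of its own, loaded with 5 µg of RNA, and samples within a group are biological replicates. The deposited values are log2 values from which the median of each probe set over the 22 arrays had been taken away, so a value of 0 marks that median and no value is a level. Genes can therefore be compared between samples, but not with each other in abundance. Where several probe sets named a gene, their values were averaged.

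The arrays did not all behave alike. Of the iUC arrays, 7 had a raised signal on the 17 Affymetrix control probe sets named Tag, with array means of 0.277 to 0.460, and the other 11 had means of -0.128 to 0.131. The normal arrays lay at -0.215 to -0.077. These sets of 11 and 7 arrays are a split by a control signal and were not taken from the sample labels. The paper describes distinct groups of 11 and 7 tumors, found by clustering and seen in a principal component plot. Those sizes equal the sizes of the sets split here. The sample labels do not name those groups, so whether they match the sets split here was not tested. GAPDH and actin, read by 13 control probe sets, had means of -1.21 to -0.626 on the 7 arrays, -0.363 to 0.316 on the 11 and -0.452 to 0.393 on the normal arrays. Normal bladder replicates 3 and 4 correlated at 0.934 with each other, and the next highest pair of normal samples at 0.761. Normal bladder replicate 1 shares the ending of its label with every iUC sample, while replicates 2 to 4 share another ending. What the ending stands for is not stated, and apart from replicate 1 it cannot be told apart from the group.

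The tissues also differed in their cells. Array means of 15 smooth muscle markers were 2.79 to 4.58 in normal bladder and -0.596 to 1.33 in iUC, and 13 of the 15 were lower in iUC. Array means of 13 urothelium markers were -3.56 to -0.316 in normal bladder and -1.29 to 0.776 in iUC, and 8 of the 13 were higher in iUC. Of 12 fibroblast and matrix markers, 10 were lower in iUC and 1 higher, with a median difference of -2.33. Of 9 endothelium markers 3 were lower, and of 13 leukocyte markers 1 was lower. Of 12 genes of cell division, 8 were higher in iUC. The part of these differences in the splicing genes was not tested. In bulk tissue, fewer cells of a type and less RNA per cell cannot be told apart.

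Most splicing genes had lower values in iUC than in normal bladder, and most of the differences were small. Of the 56 genes, 10 were called lower in iUC and 2 higher, and 44 were not called. A call is a limma adjusted p of 0.05 or below, over all 15115 genes, together with a change of 2-fold or more. The background was 8.64% of all genes called lower and 3.68% called higher, against 17.9% and 3.57% of the splicing genes. The median difference over the 56 genes was -0.45 on the log2 scale, and over all genes it was 0.08. In all, 46 of the 56 genes (82.1%) had a difference below 0, compared with 43.3% of all genes. After quantile normalization of the arrays, 2 splicing genes (U2AF1L4 and LSM1) were called lower and 0 higher, at a background of 2.85% lower and 1.95% higher, and the median difference of the members was -0.24. Without a threshold on fold, 16 splicing genes were lower and 4 higher, with 17.5% of all genes lower and 18.2% higher.

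The largest difference belonged to a gene of U2AF, the dimer that marks the intron's end. U2AF1 is the small subunit of U2AF, which reads the AG at the end of the intron, and U2AF1L4 is its paralog. The other subunit of the dimer, U2AF2, was not among the genes measured. U2AF1L4 had values of 0.97, 1.64, 2.02 and 2.35 in normal bladder replicates 1 to 4. In the 18 iUC samples the lowest was -0.62, the median -0.11 and the highest 0.35. Every iUC sample was below every normal sample. U2AF1L4 fell by 1.84 on the log2 scale (SE 0.18, adjusted p = 1.89e-07), a 3.57-fold difference, and both of its probe sets were called, at -1.44 and -2.23. It was called under all 16 alternative settings in which it was tested. U2AF1 had values of 0.71, 0.98, 0.74 and 0.72 in normal bladder and ran from -1.25 through a median of -0.11 to 0.41 in iUC. The groups again did not overlap, and U2AF1 fell by 1.04 (SE 0.27, adjusted p = 0.00518), close to the 2-fold threshold. It kept its call in 9 of 15 alternative settings, and lost it without normal bladder replicate 2, the highest of the normal samples (-0.97), after quantile normalization (-0.69), 75th percentile scaling (-0.92) and array weights (-0.83), with the label ending as a block and on the low Tag arrays (-0.71). U2AF1 and U2AF1L4 are close in sequence, and whether their probes are shared in part was not tested.

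**Figure D1:**
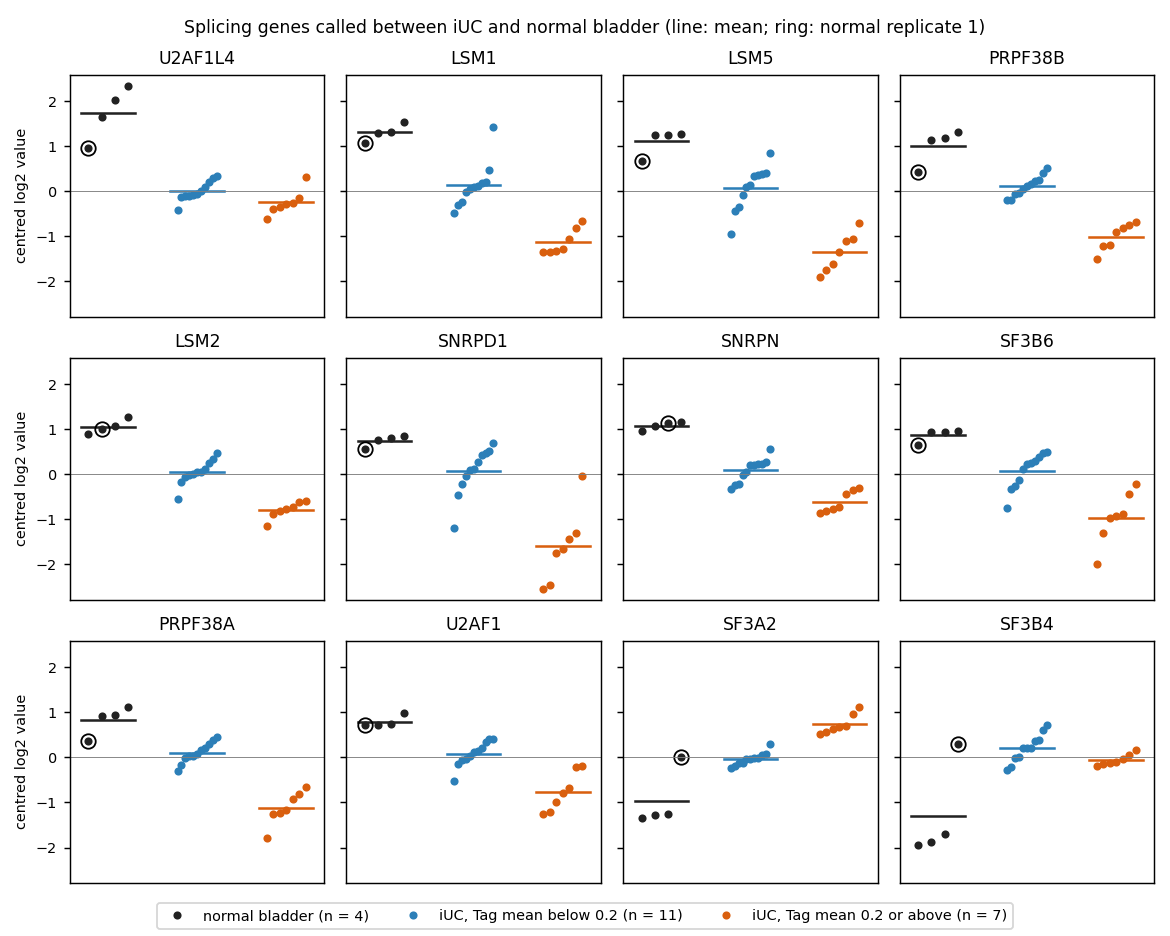
Centred log2 values of the 12 splicing genes called between iUC and normal bladder, 1 point per sample, with a line at the mean of the 4 normal samples (black), the 11 iUC arrays of low Tag signal (blue) and the 7 of high Tag signal (orange). The ring marks normal bladder replicate 1, which sits apart from the other normal samples and among the iUC samples in SF3A2 and SF3B4.

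Of the U2 snRNP, 11 proteins were measured, and 2 rose, 1 fell and 8 were not called. SF3B6, a small subunit that lies at the branch point adenosine, had values of 0.66, 0.95, 0.93 and 0.97 in normal bladder and a range of -1.99 to 0.49 in iUC, with a median of -0.24. All iUC samples were below all normal samples. SF3B6 fell by 1.21 (SE 0.34, adjusted p = 0.0095). The call was lost in 5 of 16 settings, among them quantile normalization (-0.77), array weights (-0.92) and the low Tag arrays alone (-0.81).

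The 2 genes called higher were both of U2. SF3A2 is a subunit of SF3a, and SF3B4 is an RNA-binding subunit of SF3b. SF3A2 had values of 0.01, -1.35, -1.26 and -1.28 in normal bladder replicates 1 to 4, and ran from -0.23 through 0.06 to 1.11 in iUC. Normal replicate 1 lay within the iUC range, and the other 3 normal samples lay below it. The difference was 1.24 (SE 0.25, adjusted p = 0.000728), and 10 of 18 iUC samples were above all normal samples. SF3B4 behaved likewise, with normal values of 0.30, -1.70, -1.89 and -1.95 and an iUC range of -0.27 to 0.72 around a median of 0.03. Its difference was 1.41 (SE 0.26, adjusted p = 0.000357), but only 4 of 18 iUC samples exceeded normal replicate 1. With the label ending as a block, which sets normal replicate 1 alone against the iUC samples, the difference of SF3A2 was 0.26 and that of SF3B4 was -0.20. Each gene was read by 1 probe set.

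The remaining U2 genes were not called. SF3B1, the large scaffold of SF3b that holds the branch site and is mutated in several cancers, had normal values of -0.07, 0.30, 0.26 and 0.08 and iUC values of -1.31 to 0.39 with a median of -0.08. The groups overlapped, and the difference was -0.41 (SE 0.28, adjusted p = 0.24). SF3A1, which bridges U2 to other particles, differed by 0.23 (adjusted p = 0.333). SNRPB2 and SF3B5 differed by -0.86 and -0.80, at adjusted p values of 0.000245 and 0.0175, and missed the fold threshold.

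The Sm ring is the collar of proteins that sits on the RNA of U1, U2, U4 and U5. Of 5 ring genes measured, 2 fell. SNRPN encodes SmN, a paralog of SmB from an imprinted locus, best known in brain. Its normal values were 1.13, 0.96, 1.06 and 1.15, and its iUC values ran from -0.86 through -0.23 to 0.56, with no overlap. SNRPN fell by 1.26 (SE 0.21, adjusted p = 0.000136), with both probe sets called. SNRPB, which encodes SmB itself, had normal values of 0.21, 0.10, -0.21 and -0.27 and iUC values of -1.59 to 0.37, and differed by -0.20 (adjusted p = 0.597). SmB and SmN are nearly alike in protein, and 3 further probe sets that name SNRPN together with SNURF were left out by the rule.

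SNRPD1, the SmD1 protein, fell by 1.33 (SE 0.52, adjusted p = 0.049), from normal values of 0.57, 0.84, 0.81 and 0.75 to iUC values of -2.54 to 0.70 with a median of -0.13. This is the widest iUC range of the called genes, and the call was lost without any 1 of the normal samples. SNRPF (SmF) differed by 0.54 (adjusted p = 0.00306). That mean joins a probe set at 2.32, the only called one, with others at -0.22 and -0.49.

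The LSM2-8 ring binds the end of U6 RNA, and 7 of its genes were measured. LSM5 and LSM2 fell, and 5 were not called. LSM5 had normal values of 0.67, 1.25, 1.26 and 1.26 and iUC values of -1.89 to 0.86 with a median of -0.40, and 17 of 18 iUC samples were below all normal samples. The difference was -1.59 (SE 0.42, adjusted p = 0.00619). LSM2 had normal values of 1.01, 1.26, 1.06 and 0.88 and iUC values of -1.14 to 0.46 with a median of -0.11. Its groups did not overlap, at -1.33 (SE 0.24, adjusted p = 0.00025). LSM3 differed by -0.99 (adjusted p = 0.00525), just short of a 2-fold change, and LSM4 by 0.28 (adjusted p = 0.599). LSM7 did not overlap between the groups, with normal values of 0.42 to 0.51 and a highest iUC value of 0.37, but its difference was only -0.59.

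LSM1 takes the place of LSM8 in the decay ring of the cytoplasm. Its normal values were 1.08, 1.54, 1.28 and 1.32, and its iUC values ran from -1.34 through -0.28 to 1.42. One tumor lay within the normal range and the other 17 below it. LSM1 fell by 1.66 (SE 0.37, adjusted p = 0.0019), and all 3 of its probe sets were called lower, between -1.53 and -1.76. Of the other 5 LSM genes outside the U6 ring, 0 were called. LSM12 did not overlap between the groups and differed by -0.89.

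Of the 12 PRPF genes, 10 encode proteins of the tri-snRNP or of the later, activated complex, and PRPF39 and PRPF40B are counted with U1 below. Of the 10, 2 fell. PRPF38A is needed for activation of the assembled spliceosome, and PRPF38B is related to it. PRPF38B had normal values of 0.42, 1.18, 1.31 and 1.14, iUC values of -1.50 to 0.51 with a median of -0.13, and a difference of -1.34 (SE 0.31, adjusted p = 0.00268). PRPF38A had normal values of 0.37, 0.94, 0.91 and 1.11, iUC values of -1.79 to 0.45 with a median of -0.10, and a difference of -1.21 (SE 0.34, adjusted p = 0.00929). PRPF38A kept its call in 10 of 16 settings and lost it, among others, after quantile normalization (-0.75), with array weights (-0.96) and on the low Tag arrays (-0.73). In both genes normal replicate 1 was the lowest normal sample and was overlapped by the highest iUC samples. PRPF8, the large U5 protein at the catalytic center, was not called at 0.30 (adjusted p = 0.494). PRPF6, which bridges U5 with U4/U6, differed by 0.73 (SE 0.28, adjusted p = 0.045), with normal values of -0.17, -0.50, -0.83 and -1.08 and an iUC range of -0.88 to 0.80.

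No gene of the SR protein family was called, of 11 measured. At an unadjusted p under 0.05 in limma 3 were lower and 0 higher, and the share of all genes at that threshold was not counted. At a limma adjusted p of 0.05 or below, without a fold threshold, 1 was lower and 0 higher. Of all genes, 17.5% were lower and 18.2% higher in that count. An unpaired test of each gene with adjusted p-values also called 0. SRSF3 had normal values of 0.75, 0.41, 0.20 and 0.41, iUC values of -1.44 to 0.64 with a median of -0.33, and a difference of -0.81 (adjusted p = 0.0703). SRSF1, an SR protein known as an oncogene in several settings, differed by 0.16 (adjusted p = 0.685). SRSF6 differed by 0.39 (adjusted p = 0.34), and SRSF2 by -0.06 (adjusted p = 0.881), which turned to 0.065 under quantile normalization and 0.060 under scaling to the 75th percentile.

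Proteins of U1 or associated with it were 4, and 0 were called, also by that unpaired test. At an unadjusted p under 0.05 in limma 1 was lower, a threshold at which all genes were not counted. Without a fold threshold, 0 of these 4 reached a limma adjusted p of 0.05. The one of these with the largest difference was PRPF39, at -1.01 (SE 0.41, adjusted p = 0.0598). SNRNP70, a core U1 protein whose symbol lies outside the pattern above, differed by -0.20 (adjusted p = 0.599).

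Groups that do not overlap give a view that needs no model. In 7 of the 56 genes (12.5%) every iUC sample was below every normal sample, against 4.47% of all genes. These genes were U2AF1L4, LSM2, SNRPN, SF3B6, U2AF1, LSM12 and LSM7. In 0 of the 56 genes was every iUC sample above every normal sample, against 3.22% of all genes.

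Values of the splicing genes were lowest on the 7 iUC arrays of high Tag signal. The mean of the 56 genes on an array was 0.243 to 0.347 in normal bladder, -0.159 to 0.342 on the 11 iUC arrays of low Tag signal and -0.847 to -0.488 on the 7 of high Tag signal. The 7 arrays did not overlap with either of the others. On the 11 arrays, iUC replicate 16 had the lowest mean of the splicing genes, at -0.159, and also the highest Tag mean, at 0.131. The mean over all 15115 genes was also lower on the 7 arrays, but over a far smaller range, at -0.097 to -0.055 compared with 0.069 to 0.106 on the 11 and 0.041 to 0.088 in normal bladder.

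**Figure D2:**
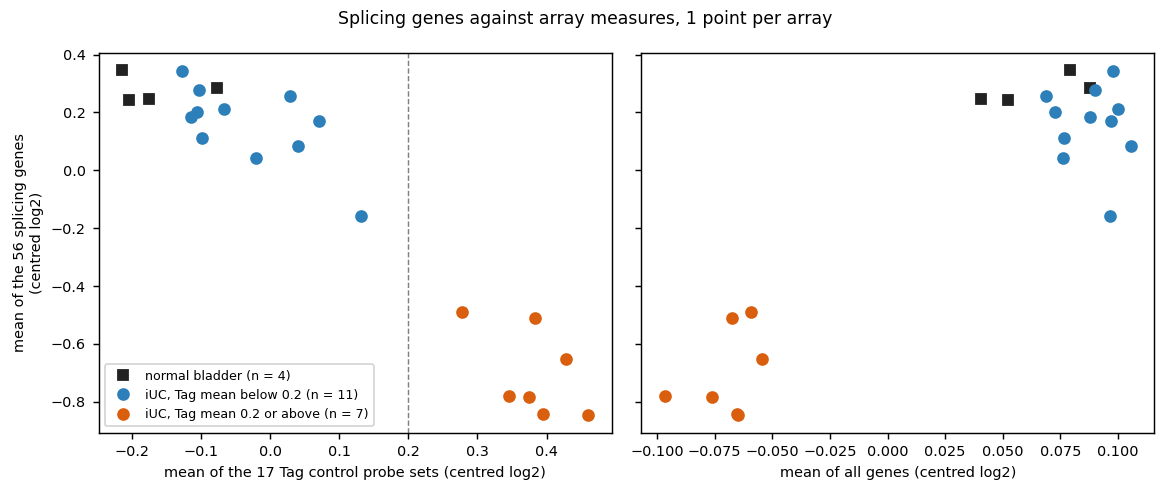
Mean of the 56 splicing genes on each of the 22 arrays (centred log2) against the mean of the 17 Tag control probe sets (left, dashed line at 0.2) and against the mean of all 15115 genes (right). The 7 iUC arrays of high Tag signal lie between -0.847 and -0.488 on the vertical axis, below the 11 other iUC arrays and the 4 normal arrays.

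Set against the 4 normal samples, the 11 iUC arrays of low Tag signal had 4 splicing genes called lower and 2 higher, at a background of 6.04% lower and 5.39% higher. That is 7.14% and 3.57% of the members. The genes were U2AF1L4, LSM1, LSM5 and LSM2 on the lower side and SF3B4 and PRPF6 on the higher side. The median difference of the 56 genes was -0.09, and over all genes 0.06. The count of higher genes was 5 without normal replicate 1 and 1 without replicate 4. After quantile normalization 1 gene was called lower and 2 higher, at a background of 2.96% lower and 4.33% higher. The 7 arrays of high Tag signal against the same normal samples had 27 splicing genes called lower and 2 higher, at a background of 17.4% lower and 7.18% higher, or 48.2% and 3.57% of the members. Their median difference was -0.98, with 0.05 over all genes. After quantile normalization, 11 of the 56 genes were called lower (19.6%) and 1 higher (1.79%) in this comparison, at a background of 6.42% lower and 6.36% higher. Both comparisons share the normal samples.

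In U2AF1L4 the values were much the same in both sets of arrays, with differences from normal bladder of -1.74 on the low and -1.99 on the high Tag arrays. The difference between the sets was -0.25 (SE 0.15, adjusted p = 0.153). SF3B4 likewise stood at 1.51 and 1.25 (difference between the sets -0.26, adjusted p = 0.321). The other 10 called genes differed between the sets at an adjusted p under the threshold, without a fold threshold. So did 68.1% of all genes. All of the 10 but SF3A2 were lower on the high Tag arrays. SF3A2 was higher there, at 1.71 from normal bladder against 0.94 on the low Tag arrays. LSM1 stood at -1.17 and -2.42, LSM5 at -1.04 and -2.46, LSM2 at -1.01 and -1.85 and SNRPN at -0.99 and -1.69. SNRPD1 stood at -0.68 (adjusted p = 0.119) and -2.34, so that it was not called on the low Tag arrays. SNRPN, PRPF38A (-0.73), PRPF38B (-0.90), SF3B6 (-0.81), U2AF1 (-0.71) and SF3A2 (0.94) were not called there either, since each missed the 2-fold threshold. PRPF6 rose on the low Tag arrays, by 1.08 (adjusted p = 8.66e-05), and stood at 0.18 (adjusted p = 0.425) on the high Tag arrays.

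Compared with each other, the 7 high Tag arrays had 24 splicing genes called lower than the 11 low Tag arrays (42.9%) and 0 called higher, at a background of 13.0% lower and 2.75% higher. At an unadjusted p under 0.05 in limma, 49 were lower (87.5%) and 3 higher (5.36%), where 36.2% of all genes were lower and 34.4% higher. The median difference was -0.93, compared with -0.01 over all genes, and 52 of 56 genes were below 0, against 50.9% of all genes. After quantile normalization, 5 were called lower (8.93%) and 0 higher, at a background of 4.39% lower and 4.79% higher, and the median was -0.59. In 29 genes (51.8%) every high Tag array was below every low Tag array, against 12.8% of all genes. In 1 gene (1.79%) every high Tag array was above every low Tag array, against 15.9% of all genes. The largest differences were those of SNRPD1 (-1.66, adjusted p = 3.03e-05), SF3A3, a subunit of SF3a (-1.63, adjusted p = 1.03e-07), and PRPF39 (-1.60, adjusted p = 9.18e-10). Of the genes of cell division 8 of 12, and of the urothelium markers 4 of 13, were also called lower on the high Tag arrays and 0 higher. Array means of the urothelium markers were -1.29 to -0.089 on the high and -0.341 to 0.776 on the low Tag arrays. The Tag controls, the GAPDH and actin controls and these markers all move with the split, and their part in the result was not tested.

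The sign of the difference from normal bladder was not the same in both sets of arrays in 18 of the 56 genes. This counts signs alone, and the share over all genes was not counted. Some of these values lay close to 0, as on the low Tag arrays in LSM14A (0.0091, adjusted p = 0.966) and LSM14B (-0.012, adjusted p = 0.918). SRSF1 stood at 0.55 (adjusted p = 0.017) on the low Tag arrays and at -0.46 (adjusted p = 0.0356) on the high Tag arrays. LSM4 stood at 0.86 and -0.64, SRSF6 at 0.81 and -0.28, PRPF8 at 0.76 and -0.42 and SRSF2 at 0.35 and -0.69. In none of these 5 did either value reach 2-fold. On the high Tag arrays the adjusted p was 0.238 for SRSF6 and 0.101 for PRPF8.

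**Figure D3:**
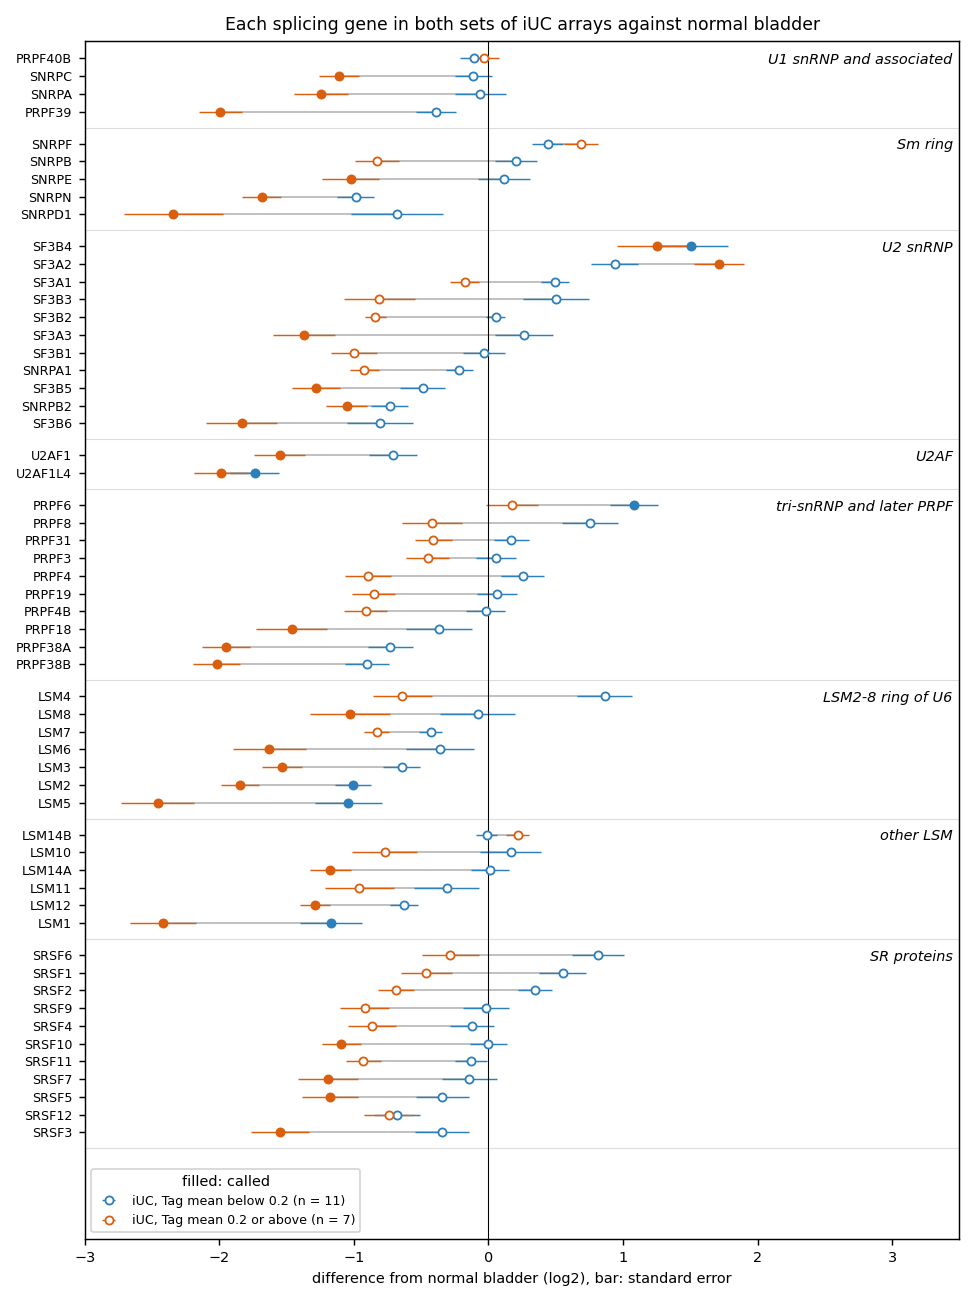
Difference from the 4 normal bladder samples (log2, bar: standard error) of each of the 56 splicing genes, grouped by role, for the 11 iUC arrays of low Tag signal (blue) and the 7 of high Tag signal (orange), with filled points for called differences. Orange points lie to the left of blue points in 52 genes, and U2AF1L4 and SF3B4 are called in both sets with nearly equal values.

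By role, the median difference from normal bladder on the low and the high Tag arrays was -1.22 and -1.77 for the U2AF genes, -0.43 and -1.54 for the U6 ring, -0.16 and -1.07 for the other LSM genes, and 0.11 and -1.02 for the Sm ring. It was 0.05 and -0.92 for U2, 0.06 and -0.87 for the 10 PRPF genes of the tri-snRNP and later complexes, -0.12 and -0.92 for the SR proteins, and -0.11 and -1.18 for U1 and associated proteins. On the low Tag arrays only the U2AF median was thus beyond 2-fold, and it is the median of 2 genes.

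Probe sets of a gene did not always move together. Of the 44 members with 2 or more probe sets, 26 had all of them on the same side of 0 and 18 on both sides. The median gap between the highest and lowest probe set of a gene was 0.71. LSM14A was the only member with probe sets called in opposite directions, at 1.26 and -1.77, and its mean of -0.45 was not called. Counting a gene as called where 1 or more of its probe sets were, 19 members were lower and 8 higher, at a background of 14.4% lower and 7.21% higher. Of the 44 uncalled members, 14 had a called probe set. Among them were PRPF8 at 1.23, SF3A1 at 1.09, SRSF1 at 1.00 and PRPF6 at 1.18 on the higher side, and LSM7 at -1.80 and PRPF4B at -1.71 on the lower side.

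**Figure D4:**
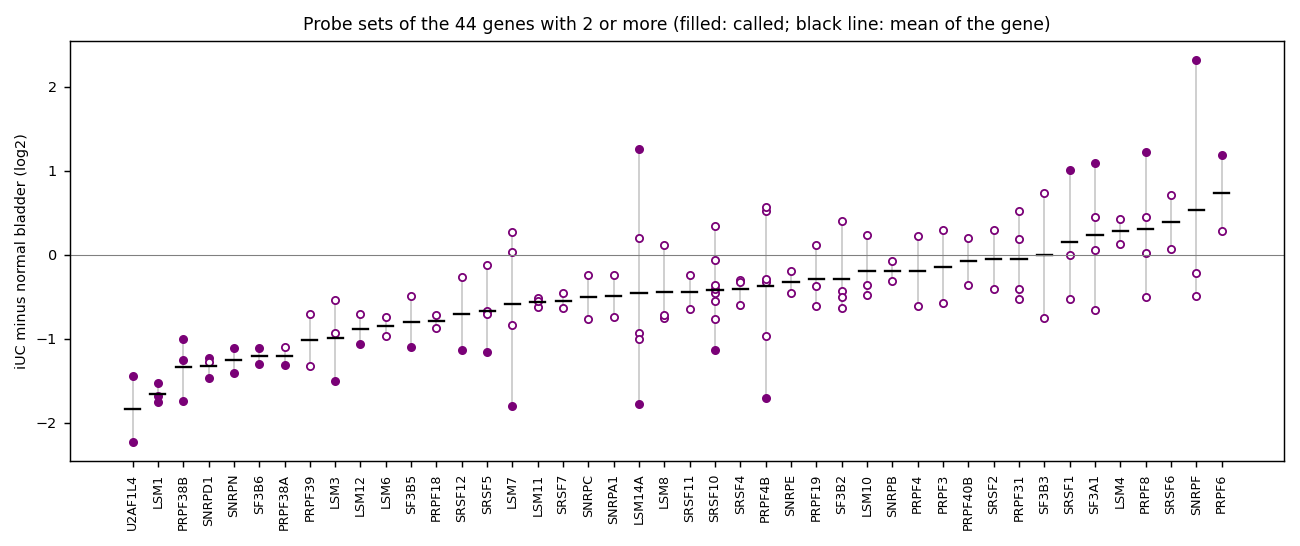
Difference between iUC and normal bladder (log2) of each probe set of the 44 splicing genes with 2 or more, ordered by the mean of the gene (black line), with filled points for called probe sets. U2AF1L4, LSM1, PRPF38B, SNRPN and SF3B6 have all their probe sets called lower, and LSM14A has probe sets called in both directions.

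Spread between tumors was compared next. The median SD over the 11 low Tag iUC arrays was 0.273 for the members and 0.210 for all genes, and 42 of the 56 members were above the latter. Over the 7 high Tag arrays it was 0.250 and 0.181. Over the 4 normal samples it was 0.232 and 0.236. The most variable members on the 11 arrays were PRPF18, a factor of the last catalytic step (SD 0.556), LSM8 (SD 0.550) and SNRPD1 (SD 0.544). LSM14B and SF3B2 varied least, with SDs of 0.0758 and 0.119. No test was made of these differences in spread.

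Other genes of splicing were counted in lists drawn up by function. Their counts over all iUC samples stand against the same background as above, 8.64% of all genes lower and 3.68% higher. For the low Tag arrays against normal bladder the background was 6.04% lower and 5.39% higher. For the high Tag arrays it was 17.4% lower and 7.18% higher. Of 63 other spliceosome components, 9 fell and 0 rose, with a median difference of -0.39. The largest falls were of CWC15 (-2.14) and CWC27 (-1.83), proteins of the catalytic spliceosome, RBM17 (-1.69), and WBP4 (-1.68). None of these 4 overlapped between the groups. On the low Tag arrays 4 of the list fell and 1 rose, with a median of -0.15, and on the high Tag arrays 27 fell and 1 rose, with a median of -0.86.

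Of 45 splicing regulators, 5 fell and 1 rose, with a median of -0.45. On the low Tag arrays the balance was the other way, with 5 higher and 3 lower and a median of -0.03, while on the high Tag arrays 0 were higher and 21 lower, with a median of -0.98. PTBP2, the neuronal paralog of the polypyrimidine tract binding protein, fell by 3.06, from normal values of 2.27, 1.21, 3.51 and 4.24 to iUC values of -1.13 to 0.56, without overlap. PTBP3, another paralog, was the 1 that rose, by 1.00 (SE 0.26, adjusted p = 0.00631), with normal replicate 1 at 0.14 within the iUC range. SREK1 fell by 2.47, KHDRBS3 by 2.32 and RBM10 by 1.43.

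Of 20 tissue splicing regulators, 1 fell and 0 rose, with a median of 0.19. The low Tag arrays had 2 higher and 1 lower, at a median of 0.02. The high Tag arrays had 2 higher and 3 lower, at a median of 0.26. Between the sets 1 was called higher and 1 lower on the high Tag arrays, with a median of 0.11. Unlike the other splicing lists, this list as a whole was thus not lower on the high Tag arrays. RBPMS, a regulator of smooth muscle splicing, fell by 2.39, from normal values of 1.38 to 3.01 to iUC values of -1.18 to 0.82. The smooth muscle markers given above were lower in the same samples. ESRP1 and ESRP2, the epithelial splicing regulators, were called on the low Tag arrays, at 1.83 and 1.20, and stood at 0.22 and 0.35 on the high Tag arrays. Between the sets ESRP1 differed by -1.61 (adjusted p = 0.00076) and ESRP2 by -0.86 (adjusted p = 0.00276). The urothelium markers differed in the same direction between the sets, with a median of -0.95, and their part in these values was not tested.

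Of 17 genes of snRNP assembly, which load the Sm ring and carry snRNA out of and back to the nucleus, 3 fell and 0 rose, with a median of -0.48. The low Tag arrays had 2 of them lower, at a median of -0.22, and the high Tag arrays 10, at a median of -1.22. STRAP, a part of the SMN complex, fell by 2.41, with normal replicate 1 at 0.40 and replicates 2 to 4 at 2.75 to 2.96. GEMIN2, the partner of SMN, fell by 1.47, and PHAX, the export adaptor of snRNA, by 1.33.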

How the data were processed

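RNA of 18 iUC and 4 normal bladder samples was hybridized to Affymetrix Canine 2.0 arrays. The authors used GeneSpring GX, and the deposited log2 values cover 43035 probe sets, each centred on its median over the 22 arrays. The summarisation of probes and the scaling of arrays are not stated in the sources used here. Centring removes the level, so no filter on low expression could be applied. After 111 controls were left out, 29254 probe sets had 1 gene symbol, 439 several and 13231 none. Genes were named only from the first kind, with symbols of the platform annotation, and 8 probe sets naming a member beside another gene were left out. Of the 56 members, 52 were found by Entrez number in the reference table of dog genes.

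Groups came from the sample labels. All 15115 genes were fitted with limma 3.58.1 in R 4.3.3 (lmFit, eBayes) without covariates, and p-values were adjusted by the Benjamini-Hochberg method across every gene. A second fit held normal bladder and the iUC arrays of Tag mean below and above 0.2 as 3 sets. Tables and figures were made with Python 3.11, pandas 2.3.3 and matplotlib 3.10.9. The code was checked on simulated data before use. Alternatives were array weights, an unpaired test of each gene with equal variances, quantile normalization, 75th percentile scaling, other ways to join probe sets, blocks by replicate number and label ending, and leaving out each normal sample. For the 3 sets, only some of these were run, chosen after seeing the data. They were quantile normalization, 75th percentile scaling, the median of probe sets and leaving out each normal sample.

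The members and lists were chosen with earlier results of these data known. Named genes were all called members, the 8 largest rises and falls, fixed anchor genes (SF3B1, U2AF1, SRSF1, SRSF2, SRSF3, PRPF8, SNRPB, SNRPN, SNRNP70, LSM1, U2AF1L4), at most 4 called genes of each other splicing list, and members with probe sets called both ways. U2AF2 was planned as an anchor too, but was not among the genes measured. Other genes were named after their values were seen, and roles were assigned from general knowledge after the values were known.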

Additional observations from a re-analysis of the deposited data

Results flagged for a closer look

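In 8 of the 56 splicing genes 1 of the 4 normal bladder samples stood far from the other 3, by Dixon's criterion for a gap, which chance alone passes in about 1 of 20 groups. The share over all genes was not counted. In 7 of these 8 the sample was replicate 1, the normal sample that shares its label ending with the iUC samples. Replicate 1 also stood apart over all 42924 probe sets that are not controls. It correlated there at 0.426, 0.617 and 0.565 with replicates 2, 3 and 4, which correlated at 0.679 to 0.934 with each other. Replicate 1 was above the other normal samples in SF3A2 (0.00773), SF3B4 (0.298) and SNRPF (-0.0380). It was below them in LSM5 (0.674), SF3B6 (0.656), SRSF5 (-0.486) and LSM14B (-0.336). In U2AF1 it was replicate 2 that stood apart, at 0.975, above the others. The cause was not tested.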

How the results depend on the processing

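The count of members called higher was 2 in the reported comparison and under every setting that left out a normal sample. It was 0 after quantile normalization, under the replicate block and under a block of label endings, 4 without the fold threshold and 8 when 1 called probe set was enough. The count called lower was 10, and 8 to 11 without 1 normal sample. It was 2 after quantile normalization, 6 with the replicate block, 1 (U2AF1L4) with the label ending as a block, 4 and 27 with only the low or the high Tag arrays, 16 without the fold threshold and 19 with 1 called probe set. The median difference of the members, -0.45 as reported, was -0.98 with only the high Tag arrays, -0.09 with only the low, -0.24 after quantile normalization, -0.33 under 75th percentile scaling, -0.21 with array weights and -0.60 with the replicate block. Same-numbered samples did not deviate together (r of -0.161, 0.0454, -0.105 and 0.0653), so the replicate numbers do not pair them. Only iUC replicates 1 to 4 share a number with a normal sample. The differences under the replicate block therefore rest on those iUC samples and the 4 normal samples, and the other iUC samples do not enter them. Scaling to the 75th percentile moved the median of all genes from 0.08 to 0.20.

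On the low Tag arrays against normal bladder, 4 genes were called higher under 75th percentile scaling and 1 to 5 without 1 normal sample (5 without replicate 1, 1 without replicate 4), and 1 and 2 were called lower after quantile normalization and 75th percentile scaling. Quantile normalization left 11 lower and 1 higher on the high Tag arrays, and 5 lower between the sets. Directions turned as follows. With the label ending as a block, SF3B4 stood at -0.20, LSM4 at -0.15, SF3A1 at -0.14, SRSF1 at -0.33 and SRSF6 at -0.26. With only the high Tag arrays, LSM4 stood at -0.64, PRPF8 at -0.42, SF3A1 at -0.18, SRSF1 at -0.46 and SRSF6 at -0.28. With only the low Tag arrays, LSM14A stood at 0.0091, SNRNP70 at 0.17, SNRPB at 0.21 and SRSF2 at 0.35. Array weights gave SNRNP70 0.18, SNRPB 0.21 and SRSF2 0.46. Probe sets of the plain type gave PRPF8 -0.026 and SRSF1 -0.27, the median of probe sets gave SNRPF -0.18, and SRSF2 stood at 0.065 after quantile normalization, at 0.060 under 75th percentile scaling and at 0.087 without normal bladder replicate 1. The cause was not tested. The filter on low values was not run, since centred values hold no level. The 4 normal samples limit the precision.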
